A study of Mus musculus with 7 samples.

Results

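The Hox genes of the mouse, all genes whose symbol is Hoxa, Hoxb, Hoxc or Hoxd followed by a number, were described in fibroblasts treated with R406 during chemical reprogramming and in solvent controls. The rule found 39 Hox genes among the 53715 genes of the expression table, with 11 in the Hoxa cluster, 10 in Hoxb, 9 in Hoxc and 9 in Hoxd. Hox proteins are homeodomain transcription factors that give cells their position along the head-to-tail axis and along the limb. The genes lie in 4 clusters, and their order on the chromosome follows the order in which they are used, with low paralog numbers expressed nearest the head and high numbers nearest the tail and in the distal limb. Fibroblasts in culture keep the Hox pattern of the place they came from. Retinoic acid activates the low-numbered end of the clusters, and Polycomb complexes keep unused parts silent.

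The RNA libraries were 2 from cells given R406 and 2 from cells given its solvent, DMSO. R406 is the active form of the drug fostamatinib and blocks the kinase Syk. Every group came from fibroblasts of OG2 mouse embryos at embryonic day 13.5 (strain CBA-Tg(Pou5f1-EGFP)2Mnn/J, a green fluorescent reporter driven by Pou5f1). Both RNA groups were grown in Stage 1 medium, under a protocol of 12 days, so the DMSO cells were also exposed to every other agent. These were bFGF, VPA (0.5 mM), CHIR99021 (20 μM), 616452, Parnate, Forskolin, AM580 (0.5 μM), EPZ004777 (5 μM) and vitamin C. AM580 is an agonist of retinoic acid receptors, and EPZ004777 inhibits DOT1L, a histone H3 lysine methyltransferase linked to Hox expression in leukaemia, so both groups carried agents that act on known regulators of these genes. The sources used here give neither the dose of R406 nor the day on which RNA was taken. CUT&Tag maps a protein by cutting DNA where an antibody against it is bound. It was run with anti-FLAG on fibroblasts carrying 2 lentiviral constructs, rtTA and a TetO-Flag-Nfatc1 that doxycycline turns on. They spent 4 days in Stage 1 medium with doxycycline and either R406 or DMSO, with 1 library per condition. Nfatc1, a calcium-responsive transcription factor, was therefore an introduced and tagged protein there. The labels do not state whether replicates were separate cultures. The p-values therefore measure only the spread between these libraries, which may be technical.

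Promoter windows were at hand for 22 Hox genes only. The upstream sequences below are those among them whose start region lay under a peak of FLAG-Nfatc1 (without Hoxa10, whose upstream bases a peak only grazed). Those of Hoxd3 and Hoxd4 follow, the pair with the largest RNA difference, whose windows held no peak. Starts of the other Hox genes were not searched, among them that of Hoxc13, which had an R406 peak 176 bases away. Each is the 250 bases before an annotated start (RefSeq, GRCm38.p6), 5′ to 3′ on the gene's strand. Capitals mark GGAAA or its reverse complement TTTCC, the core of the NFAT binding motif, and TGANTCA, the motif of the AP-1 factors with which NFAT often binds.
Hoxa9, chr6:52227371-52227620, minus strand: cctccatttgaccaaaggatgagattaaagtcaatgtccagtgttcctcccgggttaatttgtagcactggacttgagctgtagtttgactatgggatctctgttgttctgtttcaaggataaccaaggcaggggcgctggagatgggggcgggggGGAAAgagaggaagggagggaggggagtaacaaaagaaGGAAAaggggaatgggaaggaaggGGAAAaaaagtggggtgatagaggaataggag
Hoxa11, chr6:52245811-52246060, minus strand: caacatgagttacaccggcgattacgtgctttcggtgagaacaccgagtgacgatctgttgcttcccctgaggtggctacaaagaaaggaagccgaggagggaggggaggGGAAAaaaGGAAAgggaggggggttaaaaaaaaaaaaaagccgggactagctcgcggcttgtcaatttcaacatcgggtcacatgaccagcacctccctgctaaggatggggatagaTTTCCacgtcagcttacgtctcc
Hoxd8, chr2:74704365-74704614, plus strand: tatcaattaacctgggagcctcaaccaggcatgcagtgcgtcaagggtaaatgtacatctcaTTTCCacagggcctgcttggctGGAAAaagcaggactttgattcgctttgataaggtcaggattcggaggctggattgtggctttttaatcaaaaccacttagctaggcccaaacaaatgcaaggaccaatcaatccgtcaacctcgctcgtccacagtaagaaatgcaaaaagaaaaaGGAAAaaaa
Hoxd10, chr2:74691641-74691890, plus strand: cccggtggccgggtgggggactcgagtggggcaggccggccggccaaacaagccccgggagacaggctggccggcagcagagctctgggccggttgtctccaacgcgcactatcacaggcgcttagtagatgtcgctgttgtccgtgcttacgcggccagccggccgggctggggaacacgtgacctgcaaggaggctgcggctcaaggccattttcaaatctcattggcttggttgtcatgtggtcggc
Hoxd11 distal start, chr2:74679308-74679557, plus strand: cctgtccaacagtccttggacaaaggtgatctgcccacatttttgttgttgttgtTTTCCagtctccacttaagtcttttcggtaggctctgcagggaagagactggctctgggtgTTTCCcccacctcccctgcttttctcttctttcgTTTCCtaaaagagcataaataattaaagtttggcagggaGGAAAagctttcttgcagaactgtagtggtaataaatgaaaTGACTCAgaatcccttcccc
Hoxd11 proximal start, chr2:74682073-74682322, plus strand: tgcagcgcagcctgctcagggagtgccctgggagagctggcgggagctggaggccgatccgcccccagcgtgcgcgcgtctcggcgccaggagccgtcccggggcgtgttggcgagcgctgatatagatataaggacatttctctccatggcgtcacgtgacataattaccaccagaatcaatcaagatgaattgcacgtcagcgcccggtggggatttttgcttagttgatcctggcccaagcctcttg
Hoxd3, chr2:74711743-74711992, plus strand: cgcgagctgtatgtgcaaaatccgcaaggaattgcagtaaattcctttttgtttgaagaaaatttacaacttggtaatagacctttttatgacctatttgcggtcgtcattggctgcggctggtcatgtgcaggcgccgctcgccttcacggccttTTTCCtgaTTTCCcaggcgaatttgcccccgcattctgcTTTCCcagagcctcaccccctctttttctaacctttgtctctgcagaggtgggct
Hoxd4, chr2:74721728-74721977, plus strand: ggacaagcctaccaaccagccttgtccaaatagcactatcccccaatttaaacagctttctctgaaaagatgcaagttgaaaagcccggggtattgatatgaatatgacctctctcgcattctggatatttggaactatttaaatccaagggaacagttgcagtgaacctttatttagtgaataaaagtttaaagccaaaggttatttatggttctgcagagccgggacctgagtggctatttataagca
GGAAA or TTTCC occurred 4 times in the distal Hoxd11 sequence, 3 times each in those of Hoxa9, Hoxa11, Hoxd8 and Hoxd3, and not at all in those of Hoxd10, Hoxd4 and the proximal Hoxd11 start. The table held such windows for 22 Hox genes, with 24 windows in all. Of these, 15 (62.5%) held GGAAA or TTTCC, against 55.6% of all 32851 windows, so the motif was about as frequent as in any promoter. TGANTCA occurred in 1 Hox window (4.17%), the distal start of Hoxd11, against 6.75% of all windows. The motif searches covered both strands, and no position of the one motif overlaps the other.

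The clusters also encode microRNAs, shown because miR-196b lay under a peak in R406 cells. The mature sequences of its family and of the miR-10 family (RefSeq, GRCm38.p6) form 2 pairs by seed, bases 2 to 8, in capitals.
miR-196b-5p, Hoxa cluster, chr6:52230129-52230150, minus strand: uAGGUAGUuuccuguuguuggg
miR-196a-5p, Hoxb and Hoxc clusters: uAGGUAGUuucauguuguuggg
miR-10a-5p, Hoxb cluster, chr11:96317186-96317208, plus strand: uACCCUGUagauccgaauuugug
miR-10b-5p, Hoxd cluster, chr2:74726074-74726096, plus strand: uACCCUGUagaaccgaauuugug
miR-196a and miR-196b share the seed AGGUAGU, and miR-10a and miR-10b share ACCCUGU. The miR-196 family is known to target Hox messages, Hoxb8 among them. The genes Mir10a, Mir10b, Mir196b and Mir196a-2 were too low in the RNA libraries to test. Mir196a-1 of the Hoxb cluster had 18.2 and 17.9 TPM in R406 cells, against 14.5 and 15.9 TPM in DMSO cells (log2 difference 0.23, adjusted p = 0.473 by limma). TPM of these genes does not measure mature microRNAs.

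The cells expressed Hox genes from head-end to tail-end paralog groups, with Hoxb9 far above the rest. Levels are given in TPM, a measure of transcript abundance scaled for gene length and to one fixed total per library. Hoxb9, a thoracic patterning gene, had 95.5 and 76.7 TPM in the R406 libraries, against 90.3 and 78.1 TPM in the DMSO libraries. It ranked first of the 39 Hox genes in each of the 4 libraries and supplied 21.4 and 22% of the summed Hox TPM in R406 cells, against 22.6 and 23.0% in DMSO cells. Hoxd8 came next by the mean over the 4 libraries, with 35.5 and 27.4 TPM in R406 cells and 37.9 and 27.5 TPM in DMSO cells. For both genes the libraries of the groups overlapped, and the difference between replicates was larger than that between groups. At the other end of the order, Hoxb1, a hindbrain gene, was listed at 0 in all 4 libraries. Hoxa2, Hoxa6, Hoxc11, Hoxc12 and Hoxd12 also averaged below 1 TPM, so 33 of the 39 Hox genes were tested and these 6 were not. Hoxa2, which patterns the branchial arches, had 1.10 and 1.01 TPM in R406 cells, against 0.633 and 0.732 TPM in DMSO cells. Hoxa6 was at 1.22 and 0.424 TPM in R406 cells and 0.777 and 0.483 TPM in DMSO cells, which overlap. Hoxc11, Hoxc12 and Hoxd12 lay between 0.131 and 0.638 TPM in every library.

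**Figure D1:**
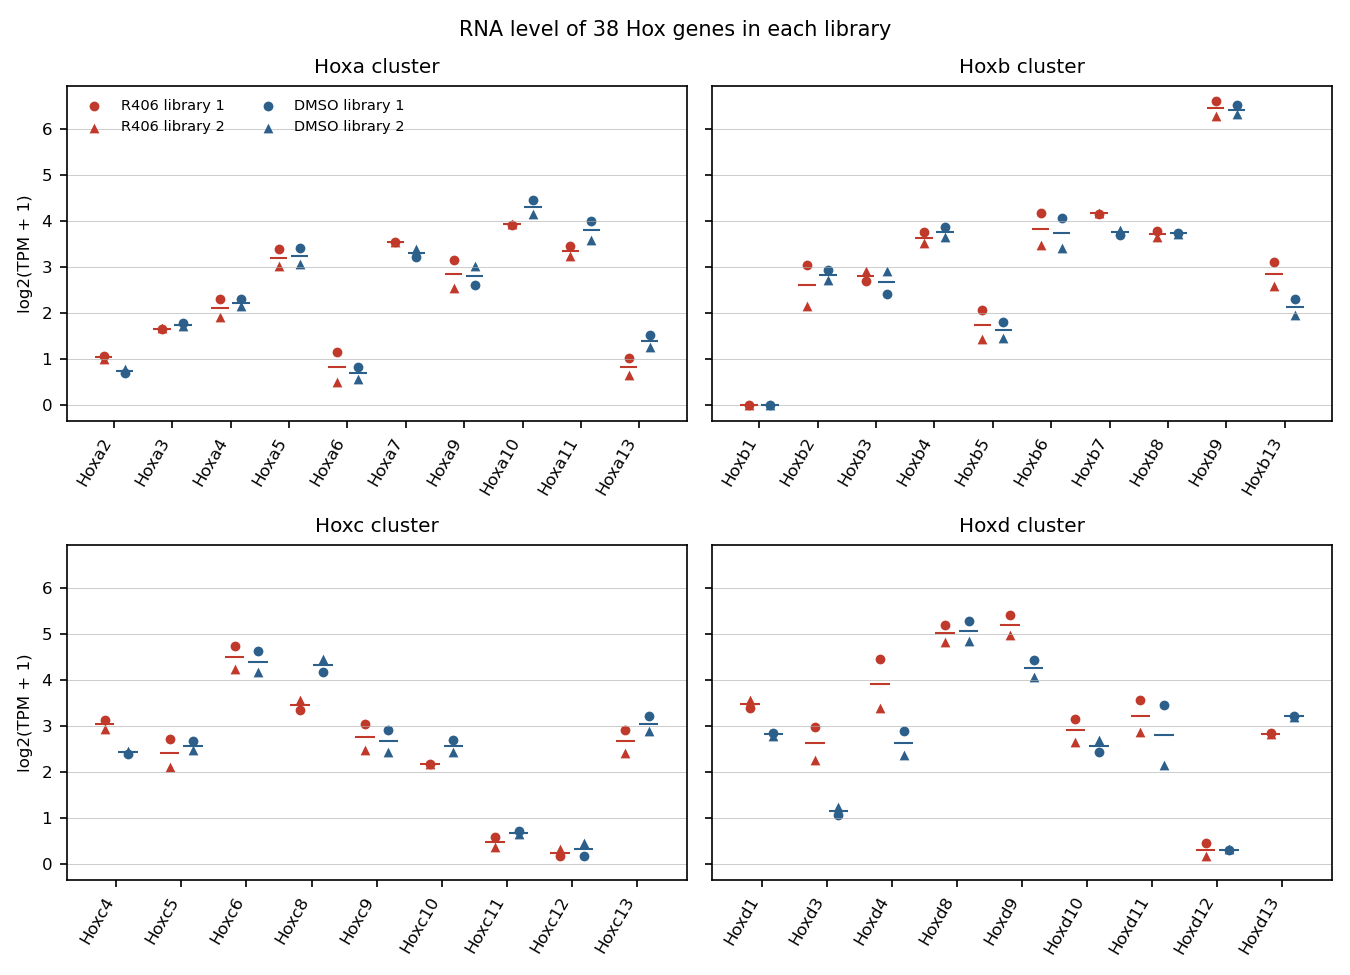
RNA level of 38 Hox genes as log2(TPM + 1), in 4 panels by cluster. Red marks are the 2 R406 libraries and blue marks the 2 DMSO libraries, with replicate 1 as circles, replicate 2 as triangles and a line at the group mean. Hoxb9 stands highest in all libraries, and Hoxb1 is at 0. The marks of Hoxd1, Hoxd3, Hoxd4 and Hoxd9 are separate between the groups, as are those of other genes in each cluster.

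The order of the 39 levels was much alike in all libraries. Spearman's rho over the 39 genes was 0.948 between the R406 libraries, 0.947 between the DMSO libraries and 0.854 to 0.918 between an R406 and a DMSO library. These are descriptions over genes that share each library. The summed TPM of all Hox genes was 447 and 348 in R406 cells, against 399 and 339 in DMSO cells, so the totals overlapped. By position, the genes of groups 1 to 3 (anterior) gave 7.72 and 8.59% of the sum in R406 cells and 6.10 and 7.35% in DMSO cells. These anterior shares did not overlap between the groups. Among the anterior genes, those of Hoxd summed to 16.3 and 14.7 TPM in R406 cells, against 7.26 and 7.27 TPM in DMSO cells. Those of Hoxa summed to 5.45 and 5.20 TPM in R406 cells, against 6.11 and 5.55 TPM in DMSO cells. Those of Hoxb overlapped (12.7 and 10.0 TPM in R406 cells, 11.0 and 12.1 TPM in DMSO cells). Groups 9 to 13 (posterior) gave 49.3 and 49.1% in R406 cells and 50.5 and 49.2% in DMSO cells. The shares of the clusters differed more between the groups than the shares along the axis. The Hoxd cluster supplied 31.1 and 28.6% of the Hox sum in R406 cells, against 23.8 and 21.3% in DMSO cells. Hoxa supplied 14.2 and 15.6% in R406 cells, against 18 and 18.5% in DMSO cells, and Hoxc 14.8 and 14.8% in R406 cells, against 17.8 and 18.6% in DMSO cells. For these 3 clusters the shares of the groups did not overlap, while those of Hoxb did (39.8 and 41.0% in R406 cells, 40.4 and 41.6% in DMSO cells). Shares of one sum depend on each other. In summed TPM only Hoxd was separate (139 and 99.6 in R406 cells, 95.1 and 72.1 in DMSO cells). The sums overlapped for Hoxa (63.7 and 54.2 in R406 cells, 71.7 and 62.8 in DMSO cells) and for Hoxc (66.3 and 51.6 in R406 cells, 71.1 and 63.1 in DMSO cells).

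R406 was compared with DMSO by limma on log2(TPM + 1), adjusted over the 13929 genes whose 4 libraries averaged 1 TPM or more. No Hox gene passed the adjusted p threshold of 0.05. Higher calls numbered 0 of 33, against a background of 4.26% of all genes tested, and lower calls 0 of 33, against 4.05% (either way, 0 of 33, against 8.31%). At an unadjusted p under 0.05 there were 7 of 33, against 26.8% of all genes, with 6 higher in R406, against 12.3%, and 1 lower, against 14.5%. The median log2 difference was 0.03 over the 33 Hox genes and -0.02 over all genes. Differences above 1 on the log2 scale in either direction were seen for 2 of 33 (6.06%), against 12.6% of all genes. The median size of the difference was 0.29 over Hox genes, and between replicates of the same genes it was 0.36 in R406 and 0.26 in DMSO. Over all genes tested these values were 0.35, 0.30 and 0.26. The first value compares means of 2 libraries and the others compare single libraries, so they are unlike measures. Both R406 libraries lay above both DMSO libraries for 8 genes, against 25.9% of all genes tested, and below for 8 genes, against 30.2%. Together these were 16 of 33, against 56.1% of all genes. The calls, the separate libraries and the differences above 1 were near the background or under it. At an unadjusted p under 0.05 the share of higher genes was above the background and that of lower genes under it.

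The absence of calls depended on the settings. Hoxd3 passed at an added 0.1 TPM, without the trend, after quantile normalization and after median centring, and Hoxd9 passed in the last pair too. In the same order, these settings called 576, 615, 877 and 933 of all 13929 genes tested higher. Leaving out replicate 2 of the R406 group gave Hoxd3 (adjusted p = 0.0076 by limma) and Hoxd4 (0.0135), with a lone R406 library assumed to vary like the DMSO ones. With the replicate number as a block in limma, 6 of 33 genes were called higher (Hoxd9, Hoxd4, Hoxd3, Hoxb13, Hoxd1 and Hoxc4) and Hoxc8 was called lower. Over all 13929 genes tested, the block called 2128 higher and 2535 lower, against 593 and 564 without it.

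**Figure D2:**
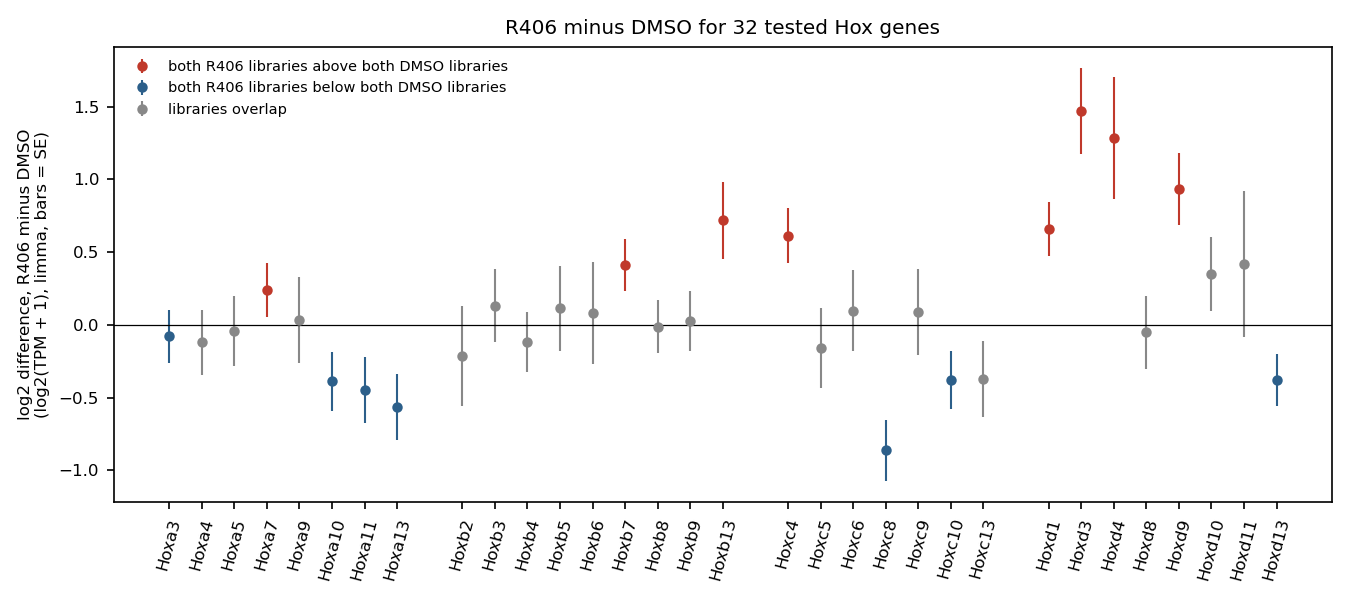
Log2 difference of R406 minus DMSO on the log2(TPM + 1) scale for 32 tested Hox genes, ordered by cluster and paralog number, with bars for the standard error from limma. Red marks have both R406 libraries above both DMSO libraries, blue marks both below, and grey marks overlap. Hoxd3, Hoxd4 and Hoxd9 stand highest and Hoxc8 lowest.

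The Hoxd cluster held the largest differences. It spans chr2:74668225-74765142 in GRCm38, and along it the genes run from Hoxd13 to Hoxd1. Hoxd3 (ENSMUSG00000079277), which patterns the upper cervical vertebrae, had 6.90 and 3.8 TPM in R406 cells, against 1.10 and 1.35 TPM in DMSO cells. The R406 values lay well above the DMSO values, though they differed from each other more than the DMSO values did. Its mean was 5.35 ± 2.19 TPM in R406 cells and 1.22 ± 0.178 TPM in DMSO cells (SD, n = 2 each), a ratio of 4.37. The log2 difference was 1.47 with a standard error of 0.30 and an adjusted p of 0.0505 by limma, just short of the threshold, with 0.00756 to 0.140 over the settings run. Hoxd4 (ENSMUSG00000101174), also a gene of cervical patterning and a target of retinoic acid, had 20.9 and 9.43 TPM in R406 cells, against 6.46 and 4.17 TPM in DMSO cells. Both R406 libraries lay above both DMSO libraries, but each group had a wide spread with replicate 1 the higher. The log2 difference was 1.28 (SE 0.42, adjusted p = 0.135 by limma, 0.0111 to 0.336 over the settings run). The annotated span of Hoxd3 covers all of Hoxd4, and the reads were not stranded per the labels' kit, so reads of these 2 genes may not be fully separated.

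Hoxd9 (ENSMUSG00000043342), a posterior gene that acts in the limb and lumbosacral region, had 41.2 and 30.4 TPM in R406 cells, against 20.6 and 15.8 TPM in DMSO cells. The groups did not overlap. Its log2 difference was 0.93 (SE 0.25, adjusted p = 0.0906 by limma, 0.00691 to 0.359 over the settings run). Its share of the Hox sum was 9.23 and 8.72% in R406 cells, against 5.16 and 4.66% in DMSO cells. Hoxd1, the gene at the opposite end of the cluster, with a known part in pain-sensing neurons of the mouse, had 9.40 and 10.9 TPM in R406 cells and 6.16 and 5.92 TPM in DMSO cells. These libraries were also separate, with a log2 difference of 0.66 (SE 0.19, adjusted p = 0.104 by limma).

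No other tested member of the cluster had both R406 libraries above both DMSO libraries. Hoxd8 lies between Hoxd9 and Hoxd3 and had a log2 difference of -0.05. Hoxd10 and Hoxd11, whose annotated spans overlap each other, differed by 0.35 and 0.42, and their libraries overlapped between groups. Hoxd10, of the lumbar spinal cord and hindlimb, had 7.90 and 5.30 TPM in R406 cells and 4.38 and 5.43 TPM in DMSO cells. Hoxd11, of the forearm, had 10.9 and 6.32 TPM in R406 cells, against 9.97 and 3.45 TPM in DMSO cells, so its replicates differed more than the groups did. Hoxd13, the most posterior member, which shapes the digits, had 6.17 and 6.04 TPM in R406 cells, against 8.28 and 8.20 TPM in DMSO cells. It was the 1 Hoxd gene with both R406 libraries below both DMSO libraries, with a log2 difference of -0.38 (SE 0.18, adjusted p = 0.258 by limma).

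Non-coding genes of the clusters were read beside these, 17 in number. Of these, 8 were tested and 0 were called, against 8.31% of all genes tested. Haglr, a non-coding gene at chr2:74748422-74762896 between Hoxd3 and Hoxd1, had 22.4 and 13.9 TPM in R406 cells, against 6.56 and 5.78 TPM in DMSO cells. The groups were separate, with a log2 difference of 1.38 (SE 0.28) and an adjusted p of 0.0504 by limma, 0.00866 to 0.138 over the other settings. Hoxd3os1, antisense to Hoxd3, had 23.9 and 19.5 TPM in R406 cells and 13.8 and 13 TPM in DMSO cells. Its log2 difference was 0.65 (SE 0.20, adjusted p = 0.116 by limma). Without strand, reads from the part where its span overlaps that of Hoxd3 cannot be told apart. In the Hoxb cluster, Hoxb5os, which overlaps Hoxb5 and Hoxb6, had 14.8 and 25.1 TPM in R406 cells, against 10.4 and 13.8 TPM in DMSO cells. Hotairm1 of the Hoxa cluster had 16.4 and 41.5 TPM in R406 cells and 15.1 and 26.9 TPM in DMSO cells, so its libraries overlapped. Hotair of the Hoxc cluster and Mir10b were listed at 0 in all 4 libraries.

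In the Hoxc cluster (chr15:102921131-103036856), the separate genes lay on both sides of 0. Hoxc8 (ENSMUSG00000001657), a gene of thoracic identity, had 9.12 and 10.8 TPM in R406 cells, against 16.9 and 21.0 TPM in DMSO cells. Both R406 values were below both DMSO values, and its log2 difference of -0.86 (SE 0.21, adjusted p = 0.0759 by limma) was the lowest of the 33 genes. Over the settings run its adjusted p was 0.0103 to 0.350. Hoxc4, at the anterior end, had 7.77 and 6.69 TPM in R406 cells, against 4.28 and 4.46 TPM in DMSO cells, with a log2 difference of 0.61 (SE 0.19, adjusted p = 0.120 by limma). Hoxc6, the most abundant of the cluster by the mean over the 4 libraries, had 25.8 and 17.8 TPM in R406 cells and 23.5 and 16.9 TPM in DMSO cells. Those libraries overlapped, and in DMSO replicate 2 Hoxc8 was the higher of the 2 genes. Hoxc5 had 5.61 and 3.32 TPM in R406 cells and 5.41 and 4.54 TPM in DMSO cells, and Hoxc9, of the trunk, had 7.24 and 4.59 TPM in R406 cells and 6.56 and 4.41 TPM in DMSO cells. Hoxc13, which acts in hair and nails, had 6.57 and 4.36 TPM in R406 cells and 8.23 and 6.38 TPM in DMSO cells. In all 3 the groups overlapped and replicate 1 was the higher in each group, with log2 differences of -0.16, 0.09 and -0.37. Hoxc10, a lumbar and hindlimb gene, had 3.55 and 3.55 TPM in R406 cells, against 5.47 and 4.40 TPM in DMSO cells (log2 difference -0.38).

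The Hoxa cluster on chromosome 6 had 7 of 9 tested genes below 0 on the log2 scale, against 7138 of all 13929 genes tested. Its median was -0.12. The posterior genes Hoxa10, Hoxa11 and Hoxa13, which pattern successive parts of the limb, lay lowest. Hoxa10 had 14.1 and 14.2 TPM in R406 cells, against 21.0 and 16.8 TPM in DMSO cells. Hoxa11 had 9.88 and 8.47 TPM in R406 cells, against 14.9 and 11.1 TPM in DMSO cells. Hoxa13, of the hand and foot, had 1.02 and 0.582 TPM in R406 cells, against 1.89 and 1.42 TPM in DMSO cells. All 3 had R406 libraries below DMSO libraries, with log2 differences of -0.39, -0.45 and -0.56 and adjusted p of 0.293, 0.288 and 0.201 by limma. Hoxa9, their neighbour, had 7.94 and 4.79 TPM in R406 cells and 5.12 and 7.07 TPM in DMSO cells, which overlap. Hoxa7 was the only tested member with both R406 libraries (10.7 and 10.7 TPM) above both DMSO libraries (8.33 and 9.55 TPM). Hoxa5, a gene of lung and rib cage, had 9.46 and 7.09 TPM in R406 cells and 9.66 and 7.42 TPM in DMSO cells. Hoxa4, of the neck region, had 3.94 and 2.76 TPM in R406 cells and 3.94 and 3.43 TPM in DMSO cells. For both genes replicate 1 was the higher in each group and the groups overlapped (log2 differences -0.04 and -0.12). The annotated span of Hoxa3 covers Hoxa4, Hoxa5 and Hoxa6, so the low levels of Hoxa3 (2.15 and 2.18 TPM in R406 cells, 2.42 and 2.27 TPM in DMSO cells) are uncertain.

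Most of the Hoxb cluster (chr11:96194316-96368254) overlapped between groups, with 7 of its 9 tested genes in that state, against 6120 of all 13929 genes tested. Its median log2 difference was 0.08. Hoxb13, which lies 74.7 kb from Hoxb9 and acts in the tail and prostate, had 7.57 and 5.04 TPM in R406 cells, against 3.94 and 2.88 TPM in DMSO cells. Its libraries were separate, with a log2 difference of 0.72 (SE 0.27, adjusted p = 0.171 by limma). Hoxb7 had 16.7 and 17.1 TPM in R406 cells, against 11.9 and 13 TPM in DMSO cells, also separate (log2 difference 0.41, adjusted p = 0.230 by limma). The remaining tested members, Hoxb2 to Hoxb6, Hoxb8 and Hoxb9, lay between -0.21 and 0.13 on the log2 scale. Hoxb2, of the hindbrain, had 7.28 and 3.48 TPM in R406 cells and 6.62 and 5.53 TPM in DMSO cells. Hoxb3 had 5.46 and 6.55 TPM in R406 cells and 4.36 and 6.57 TPM in DMSO cells. In both genes 1 group lay wholly within the range of the other. Hoxb4, known from mice for its part in blood stem cells, had 12.5 and 10.5 TPM in R406 cells and 13.5 and 11.5 TPM in DMSO cells. Hoxb5 had 3.19 and 1.70 TPM in R406 cells and 2.51 and 1.74 TPM in DMSO cells. Hoxb6 had 16.9 and 10.1 TPM in R406 cells and 15.7 and 9.56 TPM in DMSO cells. In these 3 genes replicate 1 was the higher in each group, and the groups overlapped. Hoxb8 varied little anywhere, with 12.8 and 11.5 TPM in R406 cells and 12.4 and 12.1 TPM in DMSO cells. The span of Hoxb3 covers Hoxb4, and Hoxb5 and Hoxb6 overlap Hoxb5os, so their levels may share reads.

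Read across clusters by paralog number, members of a group often differed in direction or size. In group 4, Hoxd4 and Hoxc4 were higher in R406 cells (1.28 and 0.61), while Hoxa4 and Hoxb4 were at -0.12 each. In group 8, Hoxc8 was at -0.86, but Hoxb8 and Hoxd8 were at -0.01 and -0.05. In group 9 the 4 values were 0.93 for Hoxd9, 0.09 for Hoxc9, 0.03 for Hoxa9 and 0.03 for Hoxb9. In group 13, Hoxb13 was at 0.72, against -0.37 for Hoxc13, -0.38 for Hoxd13 and -0.56 for Hoxa13. Median log2 differences were 0.03 for anterior genes (6 tested), 0.04 for groups 4 to 8 (14 tested) and 0.03 for posterior genes (13 tested), so the medians over all clusters did not differ along the axis, over members that lay on both sides of 0. Within Hoxd the medians were 1.07 for anterior genes (2 tested), 0.61 for central genes (2 tested) and 0.38 for posterior genes (4 tested). Their ranges overlapped, with 0.66 to 1.47 (anterior), -0.05 to 1.28 (central) and -0.38 to 0.93 (posterior). By cluster the medians were 0.54 for Hoxd, 0.08 for Hoxb, -0.12 for Hoxa and -0.16 for Hoxc.

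Relatives and known regulators of the Hox genes were read from lists. Each count of calls below stands against 4.26% of all genes tested for higher and 4.05% for lower calls. Among the ParaHox genes, relatives of the Hox clusters that include the Cdx activators of the tail end, 2 of 6 were tested and both rose. Gsx2, a forebrain patterning gene, had 29.0 and 16.3 TPM in R406 cells, against 3.32 and 4.22 TPM in DMSO cells (log2 difference 2.26, SE 0.32, adjusted p = 0.0266 by limma). Cdx2, an activator of posterior Hox genes, had 13.4 and 6.03 TPM in R406 cells, against 1.80 and 1.6 TPM in DMSO cells (log2 difference 1.90, SE 0.38, adjusted p = 0.0497 by limma). R406 libraries were several times above DMSO libraries for both genes, yet without replicate 1 of the DMSO group the adjusted p was 0.0628 for Gsx2 and 0.0960 for Cdx2, and without DMSO replicate 2 that of Cdx2 was 0.0792. With no filter on low values it was 0.0810 for Gsx2 and 0.123 for Cdx2, and with a mean of at least 5 TPM it was 0.0658 for Cdx2. Evx1, a homeobox gene 52.6 kb beyond the Hoxa cluster, had 5.04 and 2.45 TPM in R406 cells, against 0.421 and 0.319 TPM in DMSO cells. It rose (log2 difference 1.74, adjusted p = 0.0410 by limma), with an adjusted p of 0.0814 without DMSO replicate 1 and 0.0649 without DMSO replicate 2. Evx2, beside the Hoxd cluster, was too low to test, and of 8 tested genes flanking the clusters 0 were called.

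Genes of the retinoic acid response gave 1 higher and 1 lower call among 8 tested. Cyp26a1, which breaks down retinoic acid, rose (223 and 160 TPM in R406 cells, 41.6 and 64.7 TPM in DMSO cells; log2 difference 1.84, adjusted p = 0.0342 by limma). Crabp2, which carries retinoic acid to its receptors, fell (131 and 100 TPM in R406 cells, 315 and 274 TPM in DMSO cells; log2 difference -1.35, adjusted p = 0.0338 by limma). Rarb, a receptor and direct target, had 37.5 and 40.2 TPM in R406 cells, against 56.9 and 55 TPM in DMSO cells, with an adjusted p of 0.144 by limma. Without DMSO replicate 1 the adjusted p was 0.103 for Cyp26a1 and 0.155 for Crabp2. The Crabp2 value was also over the threshold without DMSO replicate 2 (0.0914) and without R406 replicate 2 (0.0621).

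The DNA-binding partners of Hox proteins, the Pbx, Meis and Pknox factors, gave 0 calls of 8 tested. Pbx3 and Meis2 were lower in both R406 libraries, Meis2 with 21.8 and 17.8 TPM in R406 cells, against 30.0 and 28.5 TPM in DMSO cells (log2 difference -0.55, adjusted p = 0.163 by limma). Polycomb genes gave 0 of 15 and the Trithorax and DOT1L list 0 of 10. Ezh2, the Polycomb methyltransferase, had 16.3 and 13.7 TPM in R406 cells, against 7.03 and 8.44 TPM in DMSO cells (log2 difference 0.87, adjusted p = 0.0696 by limma). Other homeobox and T-box genes of body region gave 1 higher and 2 lower calls of 18 tested. Tbx3, of the limb margins, rose (64.3 and 53.4 TPM in R406 cells, 19.1 and 18.2 TPM in DMSO cells; log2 difference 1.6, adjusted p = 0.0192 by limma). Emx2, a homeobox gene of the forebrain and urogenital tract, fell (4.88 and 4.65 TPM in R406 cells, 17.4 and 16.3 TPM in DMSO cells; log2 difference -1.63, adjusted p = 0.0183 by limma). Both calls were lost without DMSO replicate 1, with adjusted p of 0.0742 for Tbx3 and 0.0730 for Emx2, and that of Tbx3 also without DMSO replicate 2 (0.0612).

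Several cell type markers moved with the treatment in these bulk libraries, where fewer cells of a type and less RNA per cell cannot be told apart. Fibroblast markers were present in all libraries, with 1 higher (Col3a1) and 1 lower (Fn1) call of 13 tested and a summed 6235 and 4425 TPM in R406 cells, against 5227 and 4086 TPM in DMSO cells. Epithelial markers gave 8 higher calls and 1 lower of 10 tested, with a sum of 822 and 474 TPM in R406 cells, against 169 and 166 TPM in DMSO cells. Endoderm markers gave 6 higher calls of 13 tested. Macrophage markers gave 8 lower calls of 9 tested, with a sum of 21.7 and 23.6 TPM in R406 cells, against 285 and 240 TPM in DMSO cells. Without DMSO replicate 1 the higher calls were 3 for epithelium and 2 for endoderm, and both fibroblast calls were lost without either DMSO library. Of the other marker lists, 1 of 4 endothelial genes (Esam) and 1 of 3 neural genes (Stmn2) were called higher, 1 of 2 cartilage and bone genes lower and 0 of 4 striated muscle genes either way. The other 2 tested neural genes were lower in R406 cells at an unadjusted p under 0.05 by limma. The median log2 difference of the neural list was -1.27. Ptprc, the general leukocyte marker, was listed at 0 in both R406 libraries and at 0.0829 and 0.142 TPM in DMSO cells. The share of TPM in ribosomal protein genes was 20.0 and 22.8% in R406 cells, against 14.5 and 15.8% in DMSO cells. After rescaling without them and without mitochondrial genes, an alternative added after the data were seen, 2 of 35 Hox genes (Hoxd3 and Hoxd9) were called higher. Over all 14616 genes tested after rescaling, 902 were called higher. The part of these cell types in the Hox values was not tested.

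FLAG-Nfatc1 peaks were densest in the Hoxa and Hoxd clusters. With 10 kb added on each side, the 4 windows held 47 peaks in the R406 list, against 15 in the DMSO list. The R406 list was longer as a whole, with 36885 peaks against 21246, a ratio of 1.74, while the ratio in the Hox windows was 3.13. Each condition had 1 library, so these counts have no replicate check. Density over the 4 windows was 8.22 peaks per 100 kb in R406 cells and 2.62 in DMSO cells, against 1.36 (R406) and 0.786 (DMSO) over the genome. Neither the genome nor the chromosomes used below were matched to the clusters for gene content. Shares by gene and by promoter window are given further on. The blank library was not analysed here, so signal without the antibody was not set beside these counts.

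Hoxa held 25 peaks in the R406 list and 9 in the DMSO list, or 19.9 and 7.17 per 100 kb, against 1.40 (R406) and 0.783 (DMSO) for all of chromosome 6. Hoxd held 12 in R406 and 6 in DMSO, or 10.3 and 5.13 per 100 kb, against 1.54 (R406) and 0.90 (DMSO) for chromosome 2. Hoxb held 5 peaks in R406 and 0 in DMSO, and Hoxc likewise 5 in R406 and 0 in DMSO. The R406 density of Hoxb, 2.58 per 100 kb, compares with 1.92 for chromosome 11, and that of Hoxc, 3.68 per 100 kb, with 1.54 for chromosome 15. Peaks common to both lists, by at least 1 shared base, made up 9 of the 47 R406 peaks (19.1%) and 9 of the 15 DMSO peaks (60%). Over the whole lists the shares were 41.4% of R406 peaks and 73.0% of DMSO peaks.

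**Figure D3:**
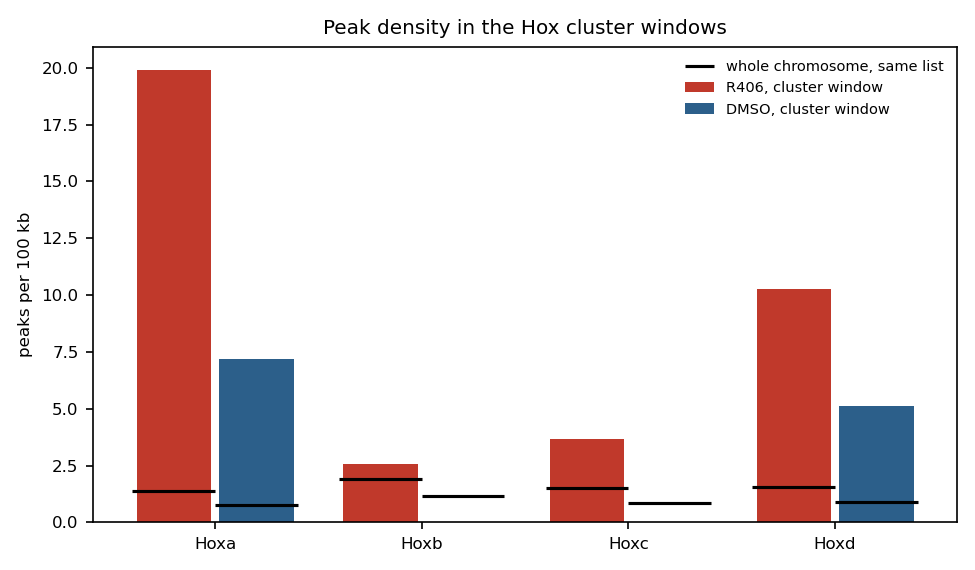
Peaks per 100 kb in each Hox cluster with 10 kb on both sides, with red bars for the R406 list and blue bars for the DMSO list (1 library each), and black lines for the whole chromosome in the same list. Hoxa (19.9 in R406, 7.17 in DMSO) and Hoxd (10.3 in R406, 5.13 in DMSO) stand far above their chromosomes, which were not matched for gene content. DMSO bars are at 0 for Hoxb and Hoxc.

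The Hox peaks had folds near the middle of the R406 list and below the middle of the DMSO list. The authors' fold enrichment ran from 4.43 to 15.8 over the 47 R406 peaks with a median of 8.22, against 8.86 for the whole R406 list. Over the 15 DMSO peaks it ran from 4.37 to 13.1 with a median of 5.83, against 8.74 for the whole DMSO list. The widest region lay at the start of Hoxa9, where the R406 list had a peak of 2591 bases (chr6:52225861-52228451, fold 14.5) and the DMSO list had 2 peaks within it (chr6:52226183-52227305, fold 13.1, and chr6:52227682-52228139, fold 9.47). The DMSO peaks flank the Hoxa9 sequence shown above without touching it, while the R406 peak covers it. Next to it, an R406 peak (chr6:52229342-52230893, fold 6.96) covered both arms of miR-196b, 1100 bases from the nearest DMSO peak by its 5p arm. In Hoxd, both lists had a peak starting at chr2:74740406 inside the annotated span of Hoxd3, with a fold of 14.5 in R406 and 8.74 in DMSO. A DMSO peak at chr2:74713208-74713603 lay shortly after the Hoxd3 start and met no R406 peak. In Hoxc the highest fold of the 47, 15.8, was that of an R406 peak at chr15:102920492-102920955, just before Hoxc13. Hoxc13 had no promoter window, so this peak is not in the window counts below. An R406 peak at chr2:74753324-74753634 lay within Haglr and 1 at chr2:74659036-74659521 within Evx2.

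**Figure D4:**
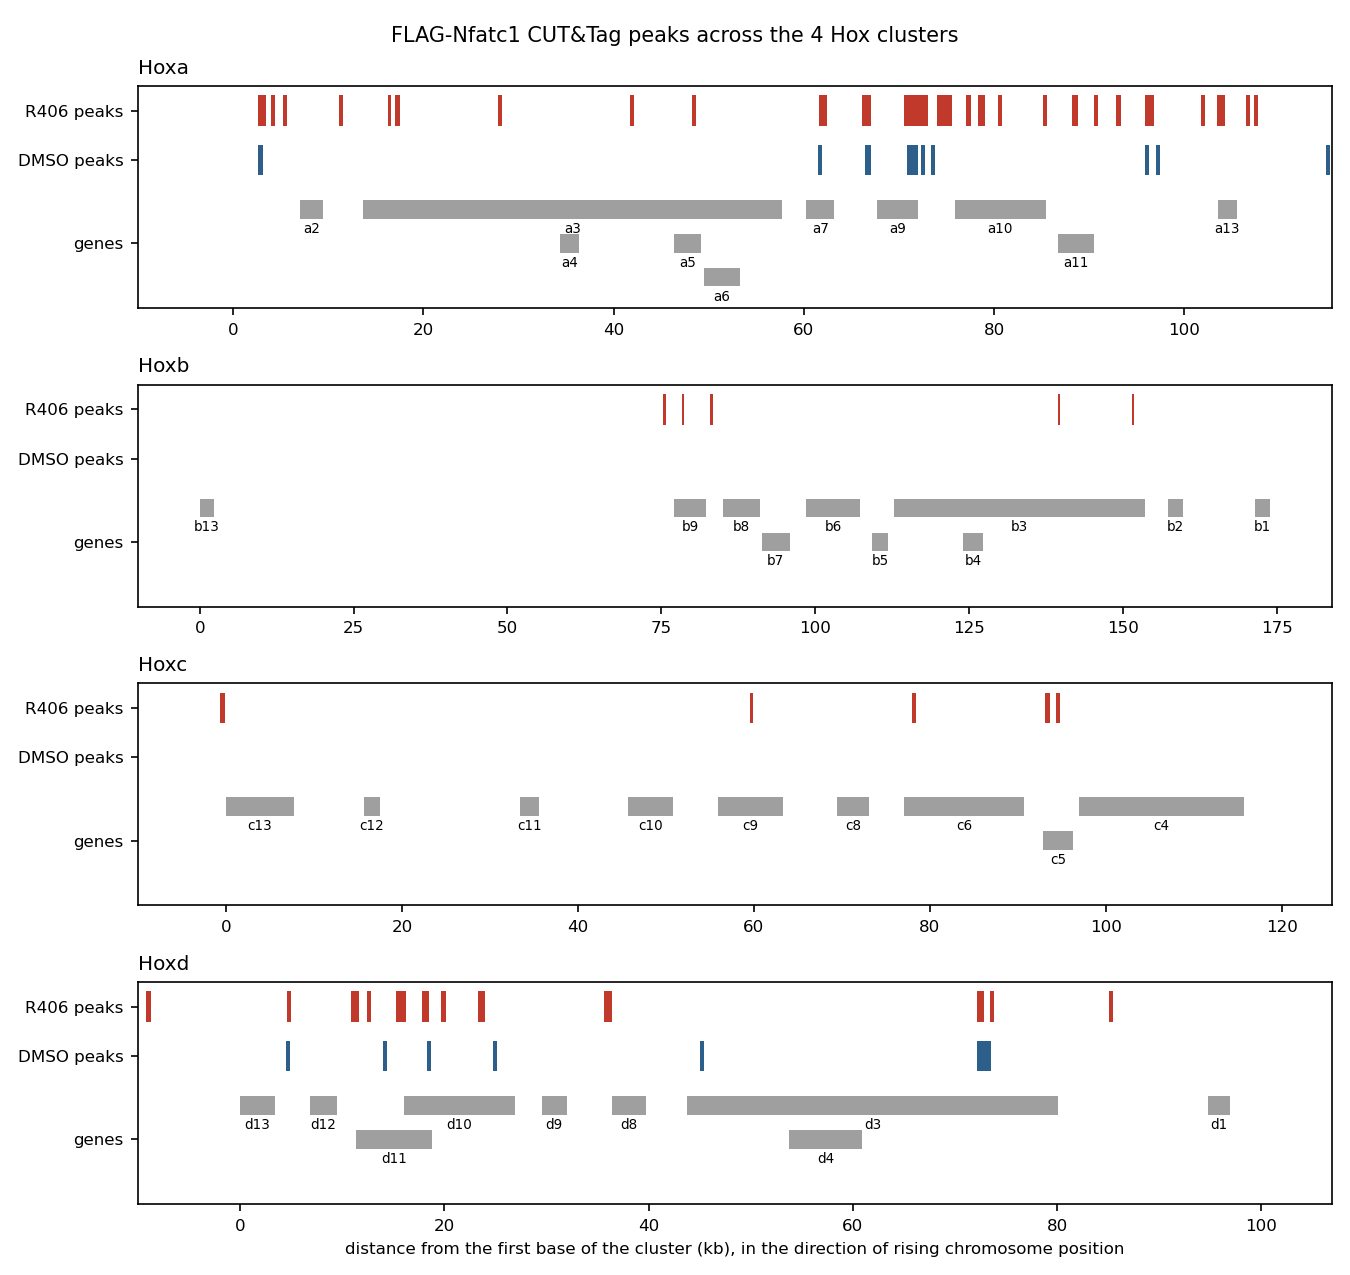
Peaks of FLAG-Nfatc1 across each Hox cluster, as distance in kb from the cluster's first base, with the R406 list (red) above the DMSO list (blue) and the spans of 38 Hox genes in grey below. Peaks crowd over Hoxa7 to Hoxa13 and over Hoxd11 to Hoxd10, and the DMSO rows of Hoxb and Hoxc are empty.

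By gene, 26 of 39 Hox genes (66.7%) had a peak within 5 kb in the R406 list, against a background of 54.1% of protein-coding genes. In the DMSO list 12 of 39 (30.8%) did, against 38.9%, and each of these 12 also had one in the R406 list. They lay in the Hoxa and Hoxd clusters, 6 in each, among them Hoxa9, Hoxa10, Hoxd3 and Hoxd9. Neighbours share peaks at this distance, so these counts are not independent. In the 24 promoter windows, from 250 bases before to 50 bases after a start, a peak overlapped 6 (25%) in R406, against 22.3% of all windows. They were those of Hoxa9, Hoxa10, Hoxa11, Hoxd8, Hoxd10 and the distal start of Hoxd11. In DMSO a peak overlapped 1 (4.17%), against 15% of all windows, and it was the proximal start of Hoxd11.

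Genes with and without peaks both had a wide range of RNA differences. Hoxd3 and Hoxd9 had peaks within 5 kb in both lists and differences of 1.47 and 0.93. Hoxd4 and Hoxd1, with 2 of the larger RNA differences, had no peak within 5 kb in either list. Hoxa10 and Hoxa11 had R406 peaks at their starts and lower RNA in R406 libraries, while Hoxd8 had one and a log2 difference of -0.05. The 23 tested genes with an R406 peak within 5 kb had a median log2 difference of -0.01, with a range of -0.86 to 1.47. The 10 tested genes without one had a median of 0.10, with a range of -0.38 to 1.28. By the DMSO list, the 10 tested genes with a peak within 5 kb had a median of 0.14 (-0.39 to 1.47) and the 23 without one a median of -0.01 (-0.86 to 1.28). Peaks came from cells with introduced Nfatc1 at 4 days and RNA from cells without it, so the values describe different cells.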

How the data were processed

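RNA-seq was measured in 2 R406 and 2 DMSO libraries, and CUT&Tag for FLAG-Nfatc1 in 1 library each of R406 and DMSO. The blank CUT&Tag library was not analysed here. Groups came from the sample titles. The authors deposited TPM per gene, and the 4 single files equalled the columns of the joint table. The submitters' processing notes name HISAT2 2.1.0, StringTie 2.0, Bowtie2 2.2.5, MACS2 2.1.2 and the build mm10, which is GRCm38. TPM keeps no read depth, so depth is unknown, and since its sum is fixed a rise of some transcripts lowers all others. Reads shared by overlapping genes may be split, and an exact 0 may be a failed estimate. The deposited peak lists give each peak a score, a fold enrichment over background (a ratio) and both p-value and q-value as −log10, as the authors' caller made them, and the lowest −log10 p was 5.00 in R406 and 5.03 in DMSO. The sources used here state neither the calling limits nor whether the blank served as control.

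The 13929 genes averaging 1 TPM or more in the 4 libraries entered a two-sided limma test (version 3.58.1, R 4.3.3) of log2(TPM + 1). It used a trended prior and Benjamini-Hochberg adjustment over all of these genes, with a threshold of 0.05. The log scale with 1 added understates the difference of low genes. The fit was also run on simulated data with independent noise and changes larger than that of any Hox gene. That run therefore says nothing on changes of the size seen for Hox genes. Hox genes were matched by symbol, and 53620 of 53715 IDs had one. The members and the gene lists were chosen with earlier results of these data known. Hox genes were described by cluster and paralog number, and genes of the other lists were named if called or among the 4 smallest p of their list. Hotairm1, Hotair, the microRNA genes, Evx2 and Ptprc fall outside this rule and were chosen after their values were seen. Single values of 1 Hox gene and of a few listed genes are not reported here, while counts, sums and medians include them. Gene spans, promoter windows and sequences came from RefSeq (GRCm38.p6). A gene counted as near a peak within 5 kb, and peaks as shared with at least 1 base in common. The alternatives are under the closing section. The rescaled TPM was added after the data were seen.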

Additional observations from a re-analysis of the deposited data

How the results depend on the processing

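Replicate numbers came from the titles, and no label says what they mark. With the replicate number as a block, 6 Hox genes were called higher and 1 lower, and over all genes 2128 higher and 2535 lower, against 593 and 564 without it. Deviations of same-numbered libraries correlated at 0.556 over all genes tested and 0.485 over the 33 Hox genes, but 2 pairs do not show that the numbers pair the samples. Replicate 1 was the higher in both groups for 22 of the 33 Hox genes (66.7%), against 52.1% of all genes.

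Higher Hox calls, 0 as reported, were 1 with 0.1 TPM added, 1 without the trend, 2 after quantile normalization, 2 after median centring and 2 after rescaling TPM without ribosomal protein and mitochondrial genes, and 0 to 2 when 1 library was left out. Lower Hox calls stayed at 0 except with the block. Among all 13929 genes tested, 576 were called higher with 0.1 TPM added, 615 without the trend and 877 after quantile normalization, against 593 as reported. Over all genes, higher calls were 0 with no filter, 311 with a mean of at least 5 TPM, 933 after median centring, 902 after rescaling and 159 to 914 with 1 library left out. Lower calls were 0 with no filter, 332 with a mean of at least 5 TPM, 850 after quantile normalization and 158 to 574 with 1 library left out. The cause was not tested, except that the filters change how many genes are tested, and a mean of at least 5 TPM leaves 24 Hox genes. Leaving out R406 replicate 1 moved the median of all genes to -0.14, so changes there are relative to that.

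Of 387 alternative log2 differences of the 33 genes, 29 turned sign and 17 gained a call. None of those that turned sign was called. Hoxa5 became 0.0015 after median centring and 0.0008 after rescaling. Hoxb8 became 0.0431 after quantile normalization, 0.0304 after median centring and 0.0320 after rescaling, and Hoxd8 became 0.0062 after quantile normalization. With no filter on low values, the calls of Gsx2, Cdx2, Evx1, Tbx3, Emx2, Cyp26a1 and Crabp2 were also lost (adjusted p of 0.0593 to 0.123 by limma). With 1 library left out, log2 differences ran over these ranges: Hoxa4 -0.32 to 0.0771, Hoxa5 -0.23 to 0.14, Hoxa9 -0.28 to 0.35, Hoxb2 -0.66 to 0.23, Hoxb3 -0.12 to 0.38, Hoxb5 -0.20 to 0.43, Hoxb6 -0.26 to 0.43, Hoxb8 -0.0809 to 0.0542, Hoxb9 -0.13 to 0.18, Hoxc5 -0.47 to 0.15, Hoxc6 -0.16 to 0.35, Hoxc9 -0.19 to 0.37, Hoxd8 -0.28 to 0.17, Hoxd11 -0.23 to 1.07. With a limit of 1 kb, 6 Hox genes had a DMSO peak, against 12 within 5 kb. Over the other alternatives for windows, thresholds and overlap, the R406 windows held 43 to 54 peaks and the DMSO windows 12 to 21, and no other peak count moved by over 1.5 times. A library per condition sets no error on any peak count.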
